A study of Mus musculus with 3 samples.

Results

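The guanylate-binding proteins (GBPs) and immunity-related GTPases (IRGs) were read in C3H10T1/2 cells, a mouse mesenchymal line, on 3 Affymetrix mouse genome arrays. The 10 members considered here were listed by gene symbol, and a member was read through the probe sets whose only annotated symbol is its own. Of the 10 genes, 8 had such a probe set, with 12 probe sets between them, out of 18193 genes with one in the series. These were Gbp2, Gbp3, Gbp6 and Gbp7 among the GBPs and Igtp, Irgm1, Irgm2 and Iigp1 among the IRGs. Gbp4 and Gvin1 were read only by probe sets that another gene shares, so no value is assigned to either. The 3 arrays held RNA from untransfected C3H10T1/2 cells, from C3H10T1/2-V cells, infected with a pMIGR retrovirus that encodes Venus, a fluorescent protein, and from C3H10T1/2-VM cells, infected with one that encodes Venus-Mkx. The methods prepare the study's stained samples from independent clones, and do not state whether the RNA on the arrays came from clones or from pooled cells. All cells were cultured in α-MEM with serum and antibiotics, and the methods name puromycin in the medium of the infected cells. Each condition had 1 array, so no difference has a replicate check, no p-value is given, and vector, culture and array cannot be told apart.

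GBPs and IRGs are large GTPases that cells make in response to interferons. They assemble on the vacuoles of intracellular parasites and bacteria and help to break them open. GBPs belong to the dynamin superfamily and bind membranes, in some members through a prenyl tail. Among the IRGs, Irgm1, Irgm2 and Igtp (also called Irgm3) sit on the membranes of the host cell and hold effector IRGs such as Iigp1 (Irga6) inactive there, whereas the effectors coat the vacuole. Interferons switch on such genes through short promoter elements: the interferon-stimulated response element (ISRE), which interferon regulatory factors bind, and the gamma-activated site (GAS).

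Of the 10 members, 6 have an entry of the RefSeq promoter table (build GRCm38.p6) that is shown here, and Gbp4, Gbp6 and Gvin1 matched none. Iigp1 was left out of this selection by its position in the genome, so its absence here does not mean that the table lacks it. The 110 bases before each annotated start are shown because they hold every motif match in these promoters. Capitals mark a match to an ISRE-like repeat, which is GAAA, any 2 bases and GAAA again, or to the GAS pattern TTCNNNGAA, both searched on both strands.
Igtp, chr11:58199446-58199555, plus strand: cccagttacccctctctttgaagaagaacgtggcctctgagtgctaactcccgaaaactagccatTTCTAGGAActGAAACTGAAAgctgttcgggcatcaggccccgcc
Irgm2, chr11:58214867-58214976, plus strand: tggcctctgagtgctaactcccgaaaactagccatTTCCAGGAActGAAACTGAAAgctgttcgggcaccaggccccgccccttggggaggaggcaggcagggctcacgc
Irgm1, chr11:48871421-48871530, minus strand: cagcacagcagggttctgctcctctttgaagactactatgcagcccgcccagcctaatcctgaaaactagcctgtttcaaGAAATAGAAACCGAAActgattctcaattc
Gbp7, chr3:142530226-142530335, plus strand: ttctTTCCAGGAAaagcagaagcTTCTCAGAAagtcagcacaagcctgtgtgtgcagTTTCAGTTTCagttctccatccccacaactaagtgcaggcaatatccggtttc
Gbp3, chr3:142559934-142560043, plus strand: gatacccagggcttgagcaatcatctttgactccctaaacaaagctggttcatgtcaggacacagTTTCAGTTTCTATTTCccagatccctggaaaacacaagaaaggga
Gbp2, chr3:142620553-142620662, plus strand: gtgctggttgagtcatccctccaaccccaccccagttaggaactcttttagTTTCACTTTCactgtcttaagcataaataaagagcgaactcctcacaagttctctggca
In Igtp and Irgm2 the capitals begin with a GAS and, after 2 lower-case bases, go on with the ISRE-like repeat. In Irgm1 and Gbp3 the capitals are 2 overlapping ISRE-like repeats. In Gbp7 the first 2 runs are GAS matches and the last is the ISRE-like repeat, and in Gbp2 the run is the ISRE-like repeat. In the 3 Gbp promoters the repeat lies on the opposite strand and reads as TTTC.

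All 8 members were far higher on the array labelled Venus-Mkx than on either control array, and all 8 were also higher in Venus than in untransfected cells. As read, each was at least 2-fold higher in Venus-Mkx than in both controls, a rule met by 6.82% of the 11169 measured genes. Each was also at least 2-fold higher in Venus than in C3H10T1/2, which 1.49% of measured genes were, again as read. A gene counted as measured when its highest value reached a floor of 4.34, the median of all log2 values on the arrays. Lower values were treated as background, although no background estimate or detection call was made. In untransfected cells, 4 of the 8 genes lay below this floor, and in Venus and Venus-Mkx none did. With values below the floor set to it, an alternative chosen after seeing the data, 8 members were at least 2-fold higher in Venus-Mkx than in both controls, as were 6.22% of measured genes, and 7 of 8 were so in Venus against C3H10T1/2, as were 1.19%. The median log2 difference of the members was 4.11 between Venus-Mkx and Venus, 6.69 between Venus-Mkx and C3H10T1/2, and 2.31 between Venus and C3H10T1/2, all as read. The differences from C3H10T1/2 had medians of 6.11 and 2.09 with the floor. The median of all measured genes was 0 in each of these differences. The comparisons share arrays and are not independent of each other.

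Several values for the whole series bear on these results. Mkx itself, read by 1 probe set, was at 6.88 on the untransfected array, 7.43 on the Venus array and 2.71 on the one labelled Venus-Mkx (log2 values). The last value opposes its label, which is why that array is named by its label here, and every direction given rests on the label. Whether the probe set lies in the part of Mkx that the vector carries is not known here. The SD of the log2 differences over measured genes was 0.94 between Venus-Mkx and Venus and 0.34 between the control arrays. Of 12 markers of mesenchymal cells, such as Vim and Col1a2, 11 were at or above the floor on every array. Of these 11, 2 were at least 2-fold higher in Venus-Mkx than in both controls, as were 6.82% of all measured genes. The 2 markers were the collagen gene Col1a1, with values of 11.52, 11.88 and 13.22, and Thy1, a surface protein gene, with 7.27, 7.26 and 8.68. Of 12 markers of macrophages and other leukocytes, which also make GBPs and IRGs, 4 were at or above the floor on each array, and their summed linear value over all 12 was 235, 289 and 437 in C3H10T1/2, Venus and Venus-Mkx. Ptprc, Adgre1, Itgam, Cd68, Tyrobp and Aif1 were below the floor on all 3 arrays. Lyz2, which encodes lysozyme, had values of 4.39, 5.14 and 7.30, and Csf1r, which encodes the macrophage growth factor receptor, of 4.45, 5.39 and 6.62. Both were at least 2-fold higher in Venus-Mkx than in both controls, so 2 of the 4 met that rule. The others at or above the floor, Cd14 and Laptm5, were lower in Venus-Mkx than in C3H10T1/2. Cd14 had values of 6.62, 6.99 and 6.49, and Laptm5 of 4.99, 4.52 and 4.70. The part of such cells in the members' values was not tested. In RNA of whole cultures, more cells of a kind cannot be told apart from more RNA per cell.

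**Figure D1:**
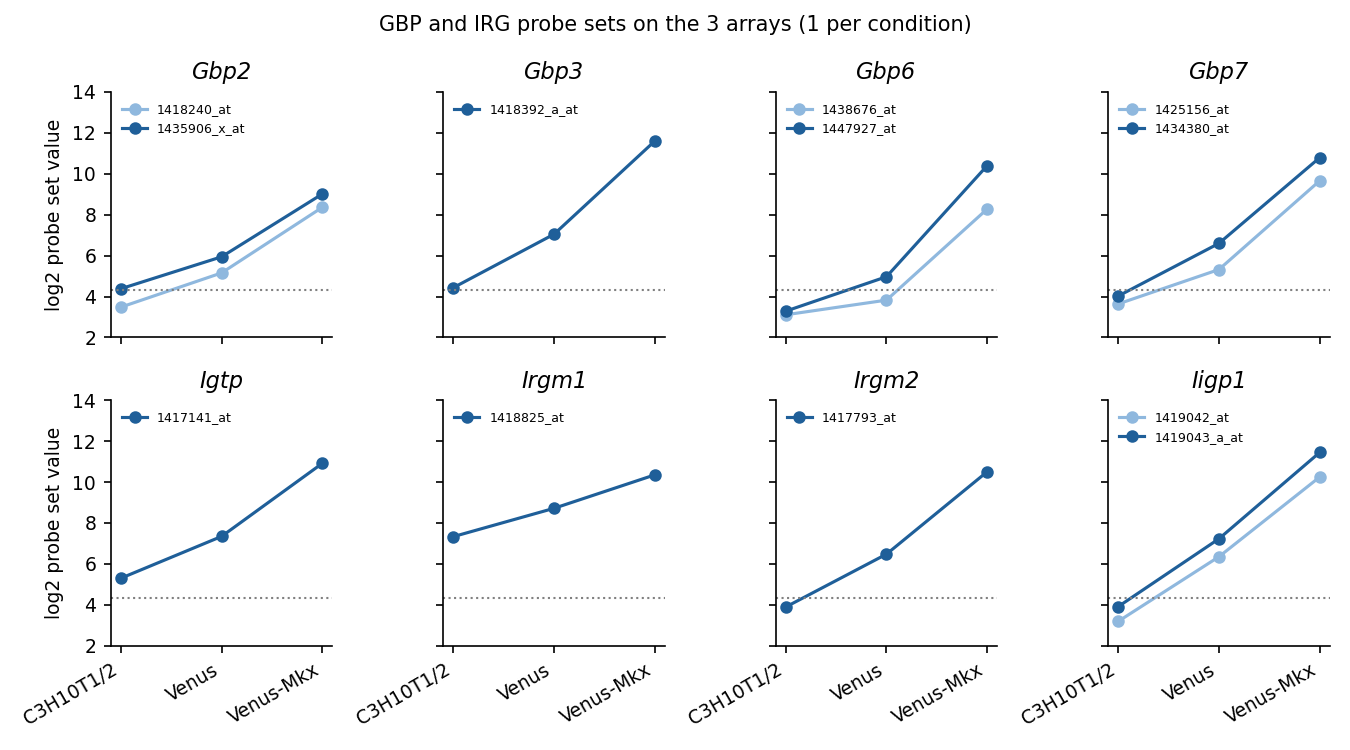
Log2 value (vertical axis) of each of the 12 probe sets of 8 GBP and IRG genes on the 3 arrays, 1 per condition; lines join the values of a probe set, the dark line is the probe set used for the gene and the dotted line is the floor of 4.34. Every line runs upward from C3H10T1/2 to Venus and again to Venus-Mkx, and the line of Irgm1, from 7.33 to 10.35, is the flattest.

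Among the GBPs, Gbp6 had the highest difference between Venus-Mkx and Venus through the probe set used for each gene. Between Venus and untransfected cells the GBPs have no full order, because Gbp6 and Gbp7 were below the floor in the latter. Gbp3 (1418392_a_at) read 4.43 on the C3H10T1/2 array, 7.05 on the Venus array and 11.60 on the Venus-Mkx array, on the log2 scale and in the order used for all values below. It was 6.13-fold higher in Venus than in C3H10T1/2 and 23.5-fold higher in Venus-Mkx than in Venus. Its only probe set carries the suffix that marks a match to several transcripts. Gbp7 (1434380_at), whose product helps to assemble oxidant-producing complexes on bacterial vacuoles, had values of 4.02, 6.60 and 10.79. It was at least 4.78-fold higher in Venus than in C3H10T1/2, taken against the floor, and 18.3-fold higher in Venus-Mkx than in Venus. A second probe set of Gbp7 (1425156_at) read 3.64, 5.32 and 9.66 and gave 20.2-fold for the latter step.

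Gbp6 (1447927_at) had values of 3.29, 4.97 and 10.40. Its log2 difference was 5.43 between Venus-Mkx and Venus, a 43.2-fold difference and the highest of the 8 genes. Against the floor it was only shown to be at least 1.54-fold higher in Venus than in C3H10T1/2, which falls short of 2-fold for that step. The other probe set of Gbp6 (1438676_at) read 3.11, 3.82 and 8.28, below the floor on both control arrays. It was at least 15.4-fold higher in Venus-Mkx than in Venus, and its difference between the controls cannot be read. As read, its log2 difference of 4.46 between Venus-Mkx and Venus was below the 4.56 of Gbp3. The first place of Gbp6 therefore rests on the probe set used. Members of this gene cluster are close copies of each other, so probe sets may share signal between them.

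Gbp2 (1435906_x_at), a prenylated member that takes part in the release of bacteria from vacuoles, differed least among the GBPs between Venus-Mkx and Venus. It had values of 4.38, 5.94 and 9.02, and was 2.95-fold higher in Venus than in C3H10T1/2 and 8.41-fold higher in Venus-Mkx than in Venus. This probe set is marked as one that may bind transcripts of other genes. The second probe set of Gbp2 (1418240_at) carries no such mark and read 3.48, 5.16 and 8.36, with a log2 difference of 3.21 between Venus-Mkx and Venus against 3.07 for the first.

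Among the IRGs, the effector gene Iigp1 had the highest difference between Venus-Mkx and Venus and Irgm1 the lowest, which was also the lowest of all 8 members. Iigp1 (1419043_a_at) had values of 3.91, 7.23 and 11.45. It was at least 7.38-fold higher in Venus than in C3H10T1/2 and 18.7-fold higher in Venus-Mkx than in Venus. The other probe set of Iigp1 (1419042_at) read 3.19, 6.35 and 10.25 and gave 14.9-fold for the latter step. That is below the 16.3-fold of Irgm2, so the first place of Iigp1 among the IRGs rests on the probe set used. In Venus-Mkx, Iigp1 was at least 138-fold above untransfected cells.

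The genes of the regulatory IRGs did not move by equal amounts. Igtp (1417141_at) had values of 5.30, 7.34 and 10.92, which is 4.13-fold from C3H10T1/2 to Venus and 11.9-fold from Venus to Venus-Mkx. Irgm2 (1417793_at), its neighbour on chromosome 11, had values of 3.89, 6.48 and 10.51, at least 4.39-fold and then 16.3-fold higher. Irgm1 (1418825_at), also known for a role in autophagy and in the survival of macrophages under infection, had values of 7.33, 8.72 and 10.35. Its differences were 2.61-fold and 3.11-fold, and all its values lay above the floor.

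The members stood near the top of the genes that were at or above the floor on both arrays of a step. Between Venus-Mkx and Venus, where this held for all 8 members and for 10521 genes, Gbp6 ranked 5, Gbp3 12, Iigp1 21, Gbp7 22, Irgm2 25, Igtp 49, Gbp2 69 and Irgm1 264. Between Venus and C3H10T1/2 it held for 4 members and 10587 genes, and Gbp3 ranked 6, Igtp 12, Gbp2 29 and Irgm1 39. These 4 genes lay above the floor on all 3 arrays, so that both steps can be read without a bound. In C3H10T1/2, however, Gbp2 at 4.38 and Gbp3 at 4.43 were barely above the floor of 4.34. Their ranks and shares for that step rest on values near the floor. In these, the step from C3H10T1/2 to Venus made up 33.7% of the whole log2 difference between Venus-Mkx and C3H10T1/2 for Gbp2, 36.4% for Igtp, 36.5% for Gbp3 and 45.9% for Irgm1. With 1 array per condition, the order of these shares has no error.

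Where a gene had 2 probe sets, both ran in the same direction. The log2 difference between Venus-Mkx and Venus differed between the probe sets by 0.14 for Gbp2, 0.15 for Gbp7, 0.32 for Iigp1 and 0.98 for Gbp6. Of all 12 probe sets, 12 were at least 2-fold higher in Venus-Mkx than in both controls, also when values below the floor were set to it. Between Venus and C3H10T1/2, 11 of 12 were at least 2-fold higher as read, and 8 of 12 with the floor.

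Of the other family genes that were listed and measured, 2 of 3 ran the same way. Gbp2b, a GBP gene that lies between Gbp3 and Gbp2, had values of 3.46, 5.53 and 9.24. Gm4951, a gene near Iigp1, had values of 3.40, 4.87 and 8.63. Of 5 other GBP and IRG genes with a probe set of their own, from a list of 20, 3 were measured and 2 of these, Gbp2b and Gm4951, were at least 2-fold higher in Venus-Mkx than in both controls. The third was Irgq, which had values of 7.32, 7.33 and 7.86. Gbp8, at the far end of the cluster of Gbp6, was below the floor on all 3 arrays.

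The members lie in runs along the chromosomes. Of 22 genes outside the families that flank these runs, 0 were at least 2-fold higher in Venus-Mkx than in both controls. Of all measured genes 6.82% were, so 0 of 22 is near that share. A rule chosen after the data were seen took the nearest 2 measured protein-coding genes on each side of each of 6 runs, that of Gvin1 included. It also took Gm4951 and Ifi47, with differences of 3.76 and 3.04 between Venus-Mkx and Venus. Both are IRG genes and were set aside, Ifi47 by name after its values were seen, which left the 22 flanking genes outside the families. Of these, 2 were at least 2-fold lower than both controls. They were Lrrc8c, a subunit gene of a volume-regulated anion channel near Gbp6, with values of 8.78, 8.47 and 7.00, and Lmo1, a transcription cofactor gene beside Gvin1, with 5.75, 5.75 and 4.18. The differences of the 22 genes between Venus-Mkx and Venus ran from −1.57 to 0.62, with a median of −0.075. Between Venus and C3H10T1/2, 1 flanking gene was at least 2-fold higher as read, Trim7 near Irgm1 with 3.29, 4.73 and 3.29, and 0 were with the floor. The shares of all measured genes were 1.49% and 1.19%. In the run of Gbp7, Gbp3, Gbp2b and Gbp2 on chromosome 3, these 4 genes had differences of 4.19, 4.56, 3.70 and 3.07, whereas Pdlim5 and Kyat3 on either side had −0.92 and −0.72. Beside the run that starts with Irgm1 on chromosome 11, Ifi47 had values of 6.85, 8.15 and 11.19. It is a further IRG gene that was not on the list of 20 other family genes.

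**Figure D2:**
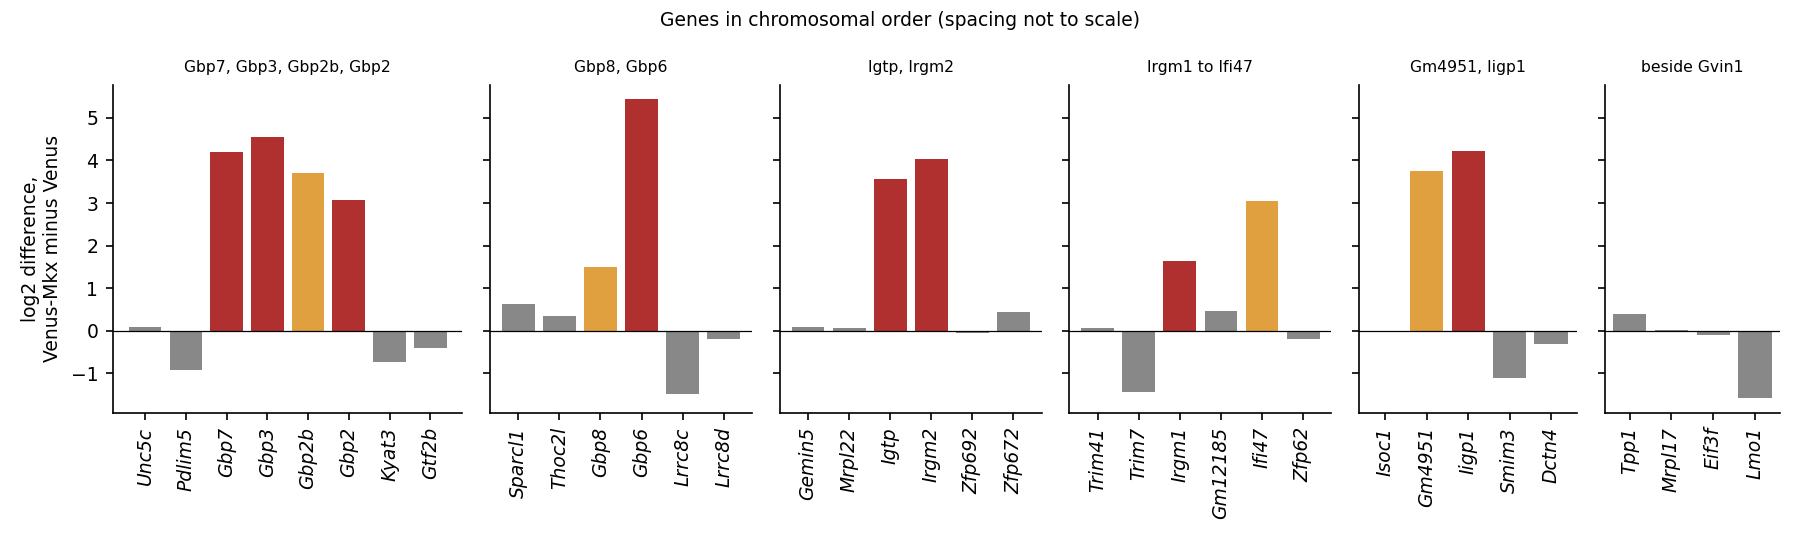
Venus-Mkx minus Venus on the log2 scale (vertical axis) for genes in chromosomal order around the members, 1 array per condition, with spacing not to scale. Red bars are the members, orange bars are further GBP or IRG genes and grey bars are other genes; Gbp8 was below the floor on all 3 arrays. Gbp6 has the highest bar, at 5.43, and the flanking genes outside the families lie between −1.57 and 0.62. Gvin1 has no probe set of its own and no bar.

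The promoters of all 6 members with an entry used here held an ISRE-like repeat close to the start of the gene. Of 7 promoter entries, with 2 starts for Gbp3, 6 held the repeat and 3 held a GAS. Chromosome 18, where Iigp1 lies, was left out of these 7 entries but not of the sets below, so the count does not cover Iigp1. Among all 32851 promoters of the table, 3.44% held the repeat, 8.30% a GAS and 0.454% both. Among promoters of measured genes, 2.90% held the repeat, and among those of genes at least 2-fold higher in Venus-Mkx than in both controls, 8.21% did, counted over 767 promoters that include those of the members. The repeat began at −34 in Igtp, −64 in Irgm2, −30 in Irgm1, −53 in Gbp7, −45 in Gbp3 and −59 in Gbp2, counted in bases from the annotated start. No GAS match overlapped a repeat. Igtp and Irgm2 share most of this stretch: with a shift of 30 bases, 100 of the 110 bases shown for Igtp were equal in Irgm2, or 90.9%. Their arrangement of a GAS, 2 bases and the repeat, looked up after the promoters were seen, was found in 5 of 32851 promoters, which were those of Igtp, Irgm2, Tgtp1, Tgtp2 and Gm12185. Gm12185, near Irgm1, had values of 3.74, 4.18 and 4.65, so it was above the floor in Venus-Mkx alone. A match describes letters only and does not show binding.

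**Figure D3:**
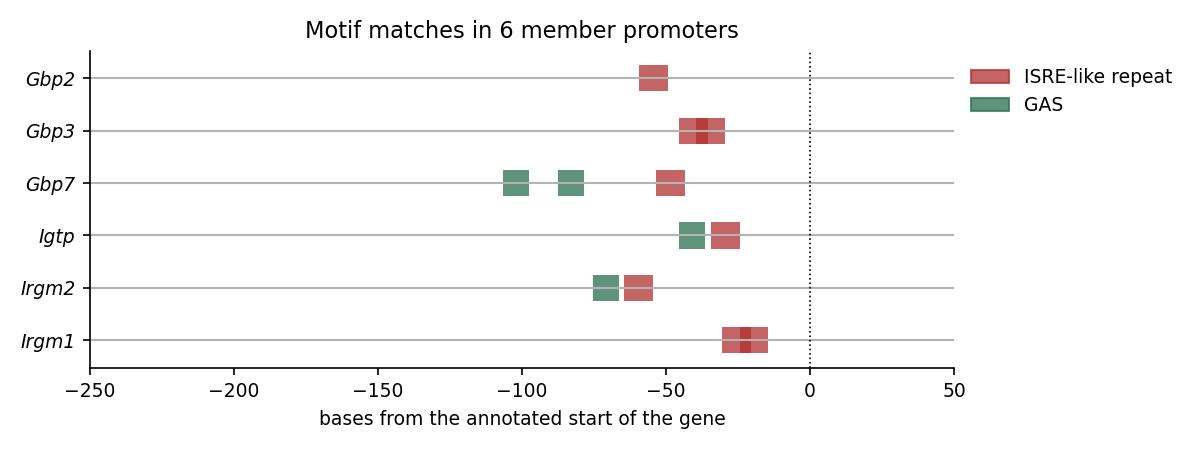
Positions of motif matches in the promoters of 6 members, in bases from the annotated start of the gene (horizontal axis, from 250 before to 50 after). Red boxes are ISRE-like repeats and green boxes are GAS matches; a darker red part is an overlap of 2 repeats. Every promoter has a red box between −64 and −15, and Gbp7, Igtp and Irgm2 also have green boxes upstream of it. The second start of Gbp3 has no match and is not drawn.

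Genes of the interferon receptors differed little beside the members, and those of several transcription factors that act on such promoters were higher. Of 7 measured receptor and Jak kinase genes, 0 were at least 2-fold apart from both controls. Of all measured genes, 6.82% were at least 2-fold higher than both, so 0 of 7 is near that share. The differences of the 7 genes between Venus-Mkx and Venus ran from −0.46 for Ifngr2 to 0.20 for Ifnar2. Of 5 interferon genes with a probe set, among them Ifnb1 and Ifng, all were below the floor on all 3 arrays. Of 6 measured interferon-responsive transcription factor genes, 5 were at least 2-fold higher in Venus-Mkx than in both controls. Irf7 was highest by Venus-Mkx minus Venus, with values of 4.13, 4.72 and 8.71, followed by Stat2 with 5.42, 6.03 and 8.18, and Irf2, a repressor, was lowest with 6.73, 6.73 and 6.55. Irf1, a main activator of GBP genes, had values of 7.93, 7.89 and 10.01, so it was higher in Venus-Mkx but not in Venus. Irf9, the DNA-binding part of the ISRE complex, had values of 6.24, 7.74 and 9.57.

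Genes of machinery that the members use were not at least 2-fold apart from both controls. Of all measured genes, only 6.82% were at least 2-fold higher than both, so 0 in lists this short is near that share. GBPs and IRGs work with the ubiquitin-like conjugation system of autophagy, and of its 11 measured genes 0 were at least 2-fold higher or lower than both controls, with a median of 0.085 between Venus-Mkx and Venus. Map1lc3a, which encodes an LC3 protein, was highest at 0.83, and Atg5 lowest at −0.50. Of 5 measured genes of protein prenylation, the modification that anchors some GBPs, 0 were at least 2-fold apart, and the differences ran from −0.65 for Fnta to 0.41 for Fntb.

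Beside other interferon-induced families, the members had a higher median in both steps. Between Venus and C3H10T1/2 the median log2 difference, as read, was 2.31 for the 8 members, 1.09 for 9 genes of the Ifit, Ifitm and Mx group, 0.71 for 8 genes of the OAS family and 0.26 for 12 genes of MHC class I and peptide loading. With values below the floor set to it, these medians were 2.09, 0.52, 0.15 and 0.26. Between Venus-Mkx and Venus the median was 4.11, 2.93, 1.27 and 2.32 in the same order. At least 2-fold higher in Venus than in C3H10T1/2 were 8 of 8 members as read and 7 of 8 with the floor. The same held for 5 of 9 genes of the Ifit, Ifitm and Mx group as read and 3 with the floor. In the OAS family it held for 3 of 8 as read and 2 with the floor. In these 2 families, 7 of 9 and 6 of 8 were at least 2-fold higher in Venus-Mkx than in both controls. Of 12 genes of MHC class I and peptide loading, 0 were at least 2-fold higher in Venus than in C3H10T1/2, and 9 were at least 2-fold higher in Venus-Mkx than in both controls. Of all measured genes, 1.49% met the first rule and 6.82% the second, as read. Oasl2, of the OAS family, had a higher difference between Venus-Mkx and Venus than any member, at 6.21. Ifit1 was below the floor in C3H10T1/2, and its log2 difference between Venus and C3H10T1/2 was at least 4.14, taken against the floor. That is above the highest of the members in this step, 3.32 as read. The difference between the families was not tested.

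**Figure D4:**
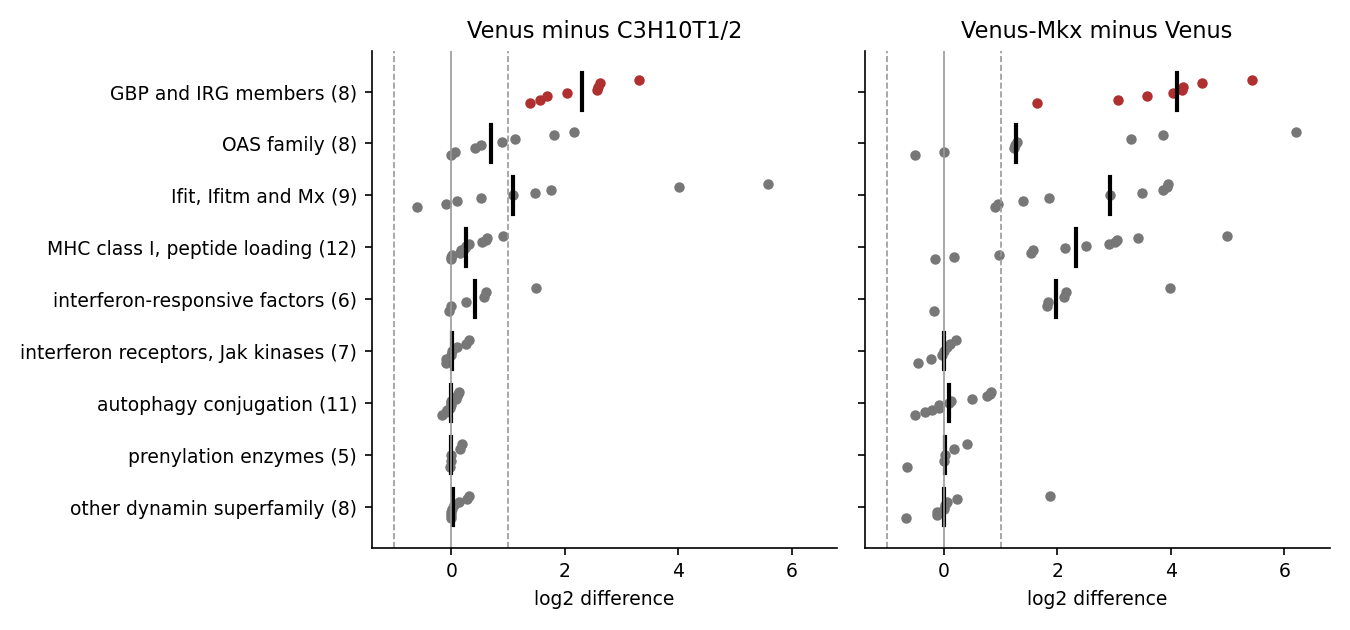
Log2 difference (horizontal axis), with Venus minus C3H10T1/2 on the left and Venus-Mkx minus Venus on the right, for the measured genes of 9 lists, with the number of genes after each name. Points are single genes, black bars are list medians, and the dashed lines stand at 2-fold. Differences are as read. The members, in red, lie beyond the upper dashed line in both panels, with medians of 2.31 and 4.11, and the autophagy and prenylation lists lie within the dashed lines.

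Genes outside the list with the most similar pair of steps were found by the distance between their 2 log2 differences, Venus minus C3H10T1/2 and Venus-Mkx minus Venus, and the medians of the members, all as read and over 3 arrays. The nearest was Abca1, which encodes a cholesterol exporter, with values of 4.38, 6.39 and 10.80 and a distance of 0.42. Gbp2b followed with 0.47, then Bst2, which encodes the antiviral membrane protein tetherin, with 0.55, Dhx58 with 0.73 and Ifih1, which encodes an RNA sensor, with 0.74.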

How the data were processed

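RNA of each condition was labelled (GeneChip 3′ IVT Express) and read on 1 Affymetrix mouse array. The authors deposited log2 probe set values, from 1.44 to 14.00, and 24.6% of the probe sets have the same value on each of the 3 arrays. Their methods name MAS 5.0 and the submitters' processing notes name RMA, and no version is stated. The values were used with no further normalization. Of 45101 probe sets, 64 controls were dropped, 34945 had 1 gene symbol in the platform annotation, 932 several and 9160 none. A gene was represented by its probe set with the highest mean, and by the floor of 4.34, 11169 of 18193 genes were measured. Medians, lists and 2-fold counts use values as read unless the floor is named, and for single members a difference with 1 side below the floor is given as a bound against it, as "at least" a fold. Levels were not compared between probe sets. The members and gene lists were chosen with earlier results of these data known. The genes named were the members, at most 4 genes of each other list, the 5 nearest genes by the 2 steps, Mkx, and genes added after their values were seen (the flanking genes, Ifi47, Gm12185, Gbp8, Irgq, Irf1, Irf9, Ifit1, Ifnb1, Ifng and single cell type markers). The counting was tested on simulated data. No p-value, SD over replicates or precision per gene can be given, because the number of arrays limits it. Promoters cover 250 bases before to 50 after the start. Alternatives covered the floor, the probe sets per gene, the scale, the control and the fold. Python 3.11.15, NumPy 2.4.6, pandas 2.3.3 and matplotlib 3.10.9 were used.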

Additional observations from a re-analysis of the deposited data

Results flagged for a closer look

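Probe sets paired with 2 genes were left out of all comparisons, and 2 of those from these families were at least 2-fold higher on the array labelled Venus-Mkx than on both control arrays. The probe set 1449009_at, paired with Tgtp1 and Tgtp2, effector IRG genes of the run that starts with Irgm1, read 4.47 on the C3H10T1/2 array, 7.36 on the Venus array and 11.54 on the Venus-Mkx array (log2). The probe set 1429184_at, paired with Gvin1 and Gm4070, had values of 6.75, 7.43 and 9.83, with a log2 difference of 0.67 between the controls. The probe set 1421104_at, paired with Gbp4 and Gbp8, had an equal value of 4.53 on all 3 arrays.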

How the results depend on the processing

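All 8 members met the rule of higher values in Venus-Mkx than in both controls under each alternative floor, scale, control and fold and with probe sets averaged, and 7 of 7 did without probe sets marked _x_at, _s_at or _a_at, which leaves out Gbp3. At 3-fold, 8 of 8 did beside 3.75% of measured genes, and 6 of the 8 were higher in Venus than in C3H10T1/2 beside 0.501%. At 1.5-fold, 8 of 8 met each rule beside 12% and 4.42%. Against the mean of the 2 control arrays the median difference of the members was 5.40, in place of 4.11 against Venus. With the probe sets of each gene averaged, the median difference between Venus-Mkx and C3H10T1/2 was 6.27, in place of 6.69. With values below the floor set to it, chosen after seeing the data, that median was 6.11. Averaging probe sets moved 5 differences of Gbp6 and Gbp7 by more than 0.34, the SD between the control arrays, leaving out marked probe sets moved 1, of Iigp1, and setting values to the floor moved 6, of Gbp6, Iigp1 and Irgm2. The other floors cannot change a member's difference. The floor limits what can be read of the low values of untransfected cells, where 4 members lay below it. No paired analysis was possible because each group has 1 array.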

Other observations

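Genes that restrain interferon signalling were also read. Of the 6 measured, 2 were higher by 2-fold or more on the array labelled Venus-Mkx than on both controls, a rule met by 6.82% of all measured genes. Usp18, which encodes a protease that removes Isg15 and blocks an interferon receptor, had values of 2.42, 7.22 and 10.20 in C3H10T1/2, Venus and Venus-Mkx. Socs3, which encodes an inhibitor of Jak kinases, had values of 9.19, 9.54 and 11.48. Among 8 measured genes of the dynamin superfamily outside the GBPs and Mx genes, 1 was at least 2-fold higher than both controls, which is near that share. It was Dnm1, with values of 7.78, 8.09 and 9.96, and the lowest difference between Venus-Mkx and Venus was −0.67 for Atl3.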
